A study of Mus musculus with 4 samples.

Results

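Expression of the acyl-CoA thioesterases was described in brown adipose tissue of wild-type and Tsku knockout mice. The list held 10 genes, of 22180 that could be tested. It was drawn up with earlier results of these arrays known. A gene entered through probe sets whose platform annotation gives that symbol alone, and where it had several the one kept was selected on the highest mean over the 4 arrays. That gave 9 measured genes. The exception, Acot8, a peroxisomal thioesterase of broad specificity, is annotated only on a probe set that it shares with its neighbour Snx21 and was not analysed here. Of the 9, only Acot4 had a further probe set of its own, with a mean of 0.59 against 0.68 for the one kept. The levels and differences below are therefore a description.

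Acyl-CoA thioesterases cut the bond between a fatty acid and coenzyme A and so release free fatty acid and free coenzyme A. They work against the acyl-CoA synthetases, which make that bond, and they are thought to keep acyl-CoA from piling up where oxidation is fast. The family falls into 2 unrelated folds. The type I enzymes Acot1 to Acot6 are alpha/beta hydrolases that came from gene duplication and differ mainly in the compartment they are sent to, and the type II enzymes share the hotdog fold. Brown fat, which oxidises fatty acids to make heat, is known for Acot11, also called Them1 or brown fat inducible thioesterase, which cold induces in this tissue. In bulk tissue a fall in the number of cells that express a gene and a fall in RNA per cell cannot be told apart.

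Brown adipose tissue was taken from male C57BL/6 mice aged 4 months on chow, and the groups were 2 wild-type samples and 2 samples from Tsku knockout mice, with 1 array each. Tsku encodes the secreted proteoglycan tsukushi. How the knockout allele was made, and whether it acts in all cells, is not given in the sources used here. No probe set is annotated to Tsku alone or jointly, so the genotypes rest on the labels. The labels call the replicates biological but do not say that each came from its own mouse, so the errors below measure the spread between these samples. All values are log2 expression, and a level was called above background where it exceeded the 95th percentile of the smell and pheromone receptor probe sets (Olfr, Vmn1r and Vmn2r genes, 1405 probe sets) of its own array, 0.63 to 0.81. Of 13 brown adipocyte markers, 12 were above background on all 4 arrays.

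The promoters of 4 members are shown, chosen by the expression of these genes. Whether the sequences bear on the expression values was not tested. Acot9 had the most negative difference between knockout and wild type, and Acot11 the most positive. Acot2 and Acot1 are adjacent, near-identical copies of which the first was above background on all 4 arrays and the second on none. Each line gives the 250 bases before an annotated start, 5′ to 3′ on the gene's strand, from RefSeq (GRCm38.p6). Capitals mark matches on either strand to the TATA box TATAAA, the CCAAT box, the GC box GGGCGG, the E box CACGTG, the core TGACG of a cAMP response element and the direct repeat DR1, which is AGGNCA followed by any base and by AGGNCA once more and is the kind of element PPAR receptors bind. The windows are chrX:155262193-155262442 (+) for Acot9, chr4:106805008-106805257 (-) and chr4:106799832-106800081 (-) for the first and second starts of Acot11, chr12:83987611-83987860 (+) for Acot2 and chr12:84009252-84009501 (+) for Acot1.
Acot9: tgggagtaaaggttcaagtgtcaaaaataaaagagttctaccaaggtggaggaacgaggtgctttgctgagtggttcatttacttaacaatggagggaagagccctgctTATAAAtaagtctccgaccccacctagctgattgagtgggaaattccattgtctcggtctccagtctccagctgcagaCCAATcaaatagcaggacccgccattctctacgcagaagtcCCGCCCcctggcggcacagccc
Acot11, first start: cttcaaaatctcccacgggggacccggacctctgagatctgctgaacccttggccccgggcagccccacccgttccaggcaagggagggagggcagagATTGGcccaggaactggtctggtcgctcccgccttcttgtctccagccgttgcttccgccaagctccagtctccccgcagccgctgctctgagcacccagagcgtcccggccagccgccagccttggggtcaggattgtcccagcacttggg
Acot11, second start: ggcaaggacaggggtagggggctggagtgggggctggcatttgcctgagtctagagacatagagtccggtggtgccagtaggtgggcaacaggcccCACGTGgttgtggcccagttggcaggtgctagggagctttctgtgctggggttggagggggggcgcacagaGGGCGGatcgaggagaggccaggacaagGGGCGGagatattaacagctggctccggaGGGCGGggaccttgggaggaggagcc
Acot2: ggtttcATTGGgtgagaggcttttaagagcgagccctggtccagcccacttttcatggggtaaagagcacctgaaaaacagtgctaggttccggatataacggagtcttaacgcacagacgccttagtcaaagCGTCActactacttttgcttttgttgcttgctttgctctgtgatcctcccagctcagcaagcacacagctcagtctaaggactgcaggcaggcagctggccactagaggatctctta
Acot1: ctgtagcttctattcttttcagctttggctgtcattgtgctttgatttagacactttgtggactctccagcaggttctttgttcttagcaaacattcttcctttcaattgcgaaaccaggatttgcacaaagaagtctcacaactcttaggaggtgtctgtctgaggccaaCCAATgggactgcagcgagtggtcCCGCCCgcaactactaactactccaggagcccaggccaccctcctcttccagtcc

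In these windows 0 matches overlapped a match to another motif. The Acot9 window held 1 TATA box, 1 CCAAT and 1 GC box, and 7 CpG dinucleotides. The second Acot11 start had 3 GC boxes, at bases 83 to 78, 55 to 50 and 26 to 21 before the start, and an E box, while the first start had 1 CCAAT on the opposite strand and 13 CpG. The Acot2 window held 1 cAMP response core, at bases 117 to 113, which the Acot1 window lacked, and the Acot1 window held a GC box, which the Acot2 window lacked. Over all 32851 promoter windows of this length, 12.4% held a TATA box, 33.8% CCAAT, 32.7% a GC box, 6.02% an E box, 17.8% the cAMP response core and 0.338% the DR1. The DR1 letters were in none of the 5 windows shown. In a global alignment Acot2 and Acot1 shared 50% of the bases of their windows, the same share as Acot2 and Acot9 (50%). Of the 10 listed genes, 9 had a window in the table, Acot13 being the exception.

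**Figure D1:**
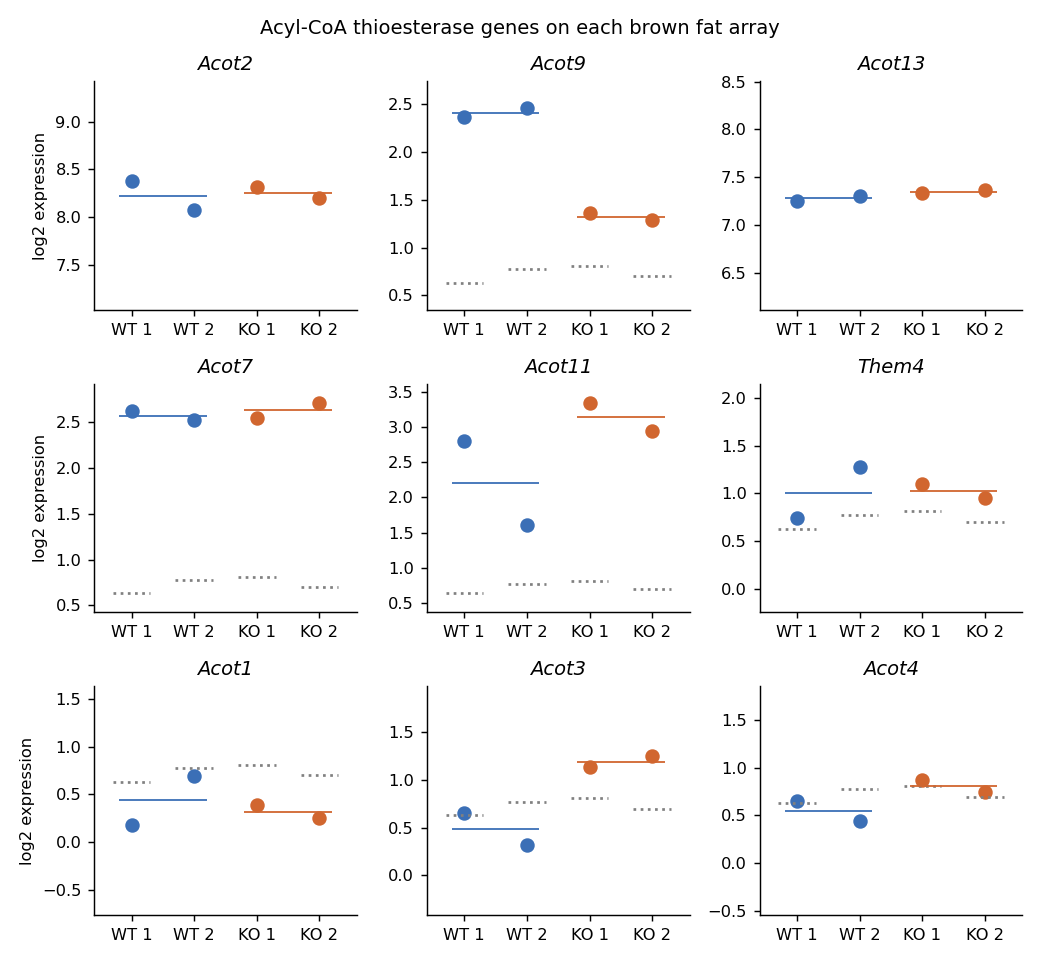
log2 expression (vertical axes, each panel with its own range) of 9 thioesterase genes on the 2 wild-type (WT) and 2 Tsku knockout (KO) arrays; points are arrays, bars genotype means, and dotted lines the background of each array where it lies in range. Acot9 is near 2.4 on both wild-type arrays and near 1.3 on both knockout arrays, and Acot1 lies below background on all 4.

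Among the mitochondrial enzymes the largest difference was that of Acot9. Acot9 (probe set 17539064) is a hotdog-fold thioesterase of mitochondria that accepts short and long acyl chains. It read 2.37 and 2.46 in wild type against 1.36 and 1.29 in the knockout. Both knockout arrays lay below both wild-type arrays, with a gap between the genotypes of 1.01, while arrays of 1 genotype differed by 0.086 at most. The means were 2.42 ± 0.061 (SD, n = 2) and 1.32 ± 0.049 (SD, n = 2), and all 4 values were above background. The log2 difference was -1.09 (SE 0.18, 95% interval -1.54 to -0.65), which is 2.13-fold lower in the knockout. Of all genes tested, 80, or 0.361%, had a difference as low or lower. The difference did not pass the threshold of an adjusted p under 0.05 (limma, Benjamini-Hochberg over all genes, adjusted p = 0.872). Without single arrays it stayed between -1.13 and -1.05.

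Acot2 (17277134), the type I enzyme of the mitochondrial matrix, gave no such difference. It read 8.37 and 8.08 in wild type against 8.31 and 8.20 in the knockout, so the knockout values lay between the wild-type values. The log2 difference was 0.03 (95% interval -0.46 to 0.52). Acot13 (17291355), also called Them2, a small hotdog enzyme tied to mitochondria and to the phosphatidylcholine transfer protein, read 7.25 and 7.30 in wild type against 7.34 and 7.36 in the knockout. The genotypes did not overlap, but by a gap of only 0.034, and the difference of 0.07 had an interval of -0.37 to 0.51. Them4 (17400023), a mitochondrial thioesterase also described as a partner of the kinase Akt, read 0.74 and 1.27 in wild type against 1.10 and 0.95 in the knockout, with a difference of 0.02 (-0.57 to 0.61). Its values lay just above background on all 4 arrays, and the wild-type arrays enclosed the knockout arrays.

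The second largest difference by size was that of Acot11 (17427860), the brown fat enzyme, which has a lipid-binding START domain beside its hotdog domains. It read 2.80 and 1.61 in wild type against 3.35 and 2.95 in the knockout. Both knockout arrays lay above both wild-type arrays, but the gap was 0.15 and the wild-type arrays themselves differed by 1.19. The log2 difference was 0.95 (SE 0.41), or 1.93-fold, with an interval from -0.048 to 1.94 that holds 0. Wild-type replicate 2 set its size: the difference was 1.54 without wild-type replicate 1, which leaves replicate 2 as the lone wild-type array, and 0.35 without replicate 2. A further probe set carries Acot11 together with Fam151a and was not used.

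Of the cytosolic enzymes, 1 differed by less than its interval and 1 was not above background. Acot7 (17422117), a hotdog thioesterase best known from neurons, read 2.62 and 2.53 in wild type against 2.55 and 2.72 in the knockout, and the genotypes overlapped (difference 0.06, 95% interval -0.40 to 0.52). Of 7 neuronal markers, 5 were higher and 2, Dbh and Uchl1, lower in the knockout (median 0.05). On all 4 arrays 5 were below background and 1, Stmn2, was above it. Stmn2 read 0.74 and 0.91 in wild type against 1.59 and 1.82 in the knockout, while Uchl1 differed by -0.45 and Dbh by -0.44. The part of neuronal RNA in the Acot7 value was not tested. Acot1 (17277140), the cytosolic twin of Acot2, read 0.18 and 0.69 in wild type against 0.38 and 0.25 in the knockout. All 4 values were below background, so it gives no fold. Acot1 and Acot2 encode nearly the same protein, and which of their transcripts each probe set binds was not tested.

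The peroxisomal type I enzymes were dim. In the reference gene order Acot2, Acot1, Acot4, Acot3, Acot5 and Acot6 follow one another with no other protein-coding gene between them. Acot3 (17277152), which acts on long-chain acyl-CoA, read 0.65 and 0.32 in wild type against 1.13 and 1.25 in the knockout. It was above background on 1 of the 2 wild-type arrays and on both knockout arrays, and the genotypes did not overlap (gap 0.48). The log2 difference was 0.71 (SE 0.21, 95% interval 0.21 to 1.21; limma adjusted p = 0.872), and between 0.54 and 0.88 without single arrays. No fold is given, because the wild-type mean, 0.48, lay below the background of both wild-type arrays.

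Acot4 (17277146), known to hydrolyse succinyl-CoA, read 0.65 and 0.44 in wild type against 0.87 and 0.75 in the knockout. These values straddle the background, with 1 of 2 wild-type arrays and both knockout arrays above it, and the difference of 0.26 had an interval of -0.21 to 0.73. Its other probe set (17282457) went the opposite way. It read 0.86 and 0.87 in wild type against 0.35 and 0.28 in the knockout, a difference of -0.55, with both wild-type arrays above background and both knockout arrays below it. The direction of Acot4 thus depends on the probe set, and it turned to -0.14 with the mean of both.

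**Figure D2:**
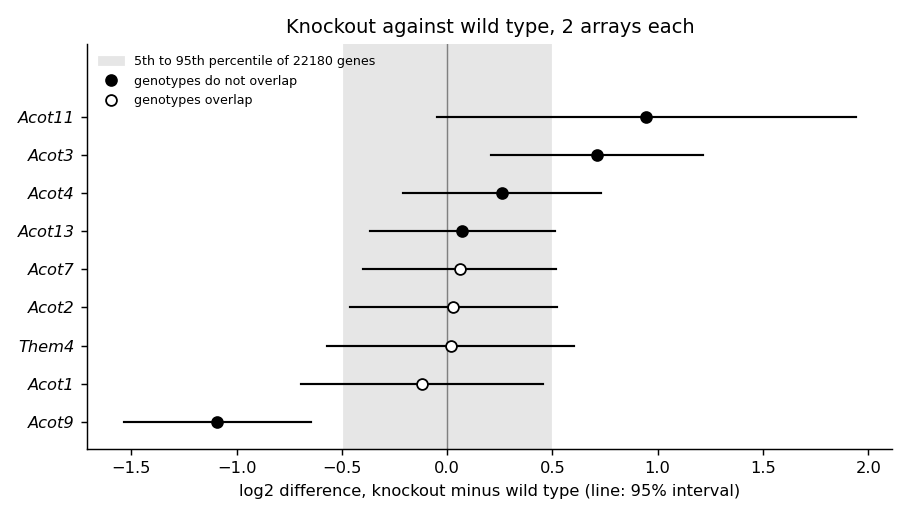
log2 difference of each thioesterase gene, knockout minus wild type (horizontal axis; points are limma estimates from 2 arrays a genotype, lines 95% intervals; filled points mark genes whose genotypes do not overlap). The grey band holds the middle 90% of all 22180 genes, -0.49 to 0.50; Acot9, Acot11 and Acot3 have their estimates outside it.

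Across the 9 measured genes, 7 had higher and 2 lower values in the knockout, and the median log2 difference was 0.06, against 0.02 over all genes. Of all 22180 genes, 11670 had higher values in the knockout. Acot1, 1 of the 2 lower members, was below background on every array. With limma 0 of them had an adjusted p under 0.05, as had 0 (0%) of the 22180 genes tested. An unadjusted p under 0.05 was found for 2 members, Acot9 and Acot3, and 1234 genes in all (5.56%). The genotypes did not overlap in 5 of the 9, Acot9 being lower and Acot3, Acot4, Acot11 and Acot13 higher; over all genes this held for 35.2%, 15.8% lower and 19.4% higher. Because the list was drawn up with this comparison known, nothing is read from these counts. With 2 arrays against 2, an exact permutation test of a single gene cannot give a two-sided p under 0.333.

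**Figure D3:**
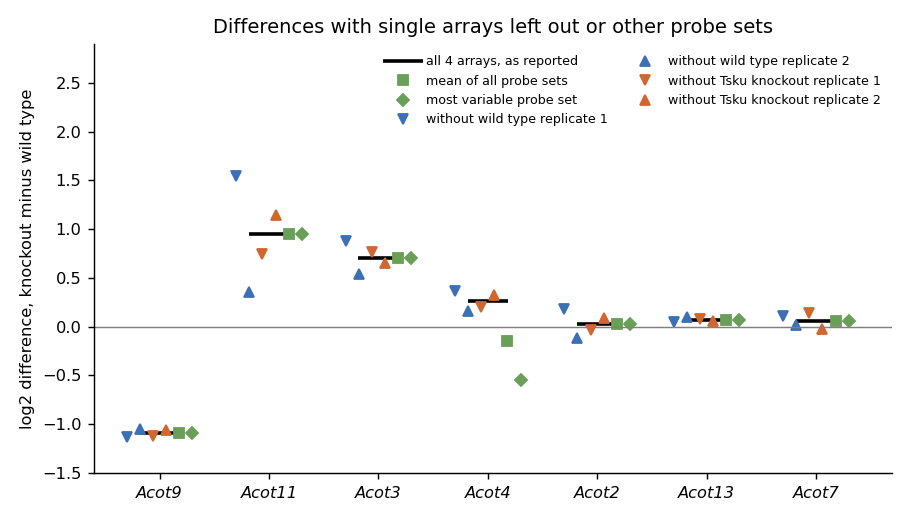
log2 difference of 7 thioesterase genes (vertical axis) with all 4 arrays (black bar), with single arrays left out (triangles) and with other choices of probe set (green). Acot9 stays near -1.1 throughout, Acot11 ranges from 0.35 to 1.54, and Acot4 changes sign with the probe set.

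Signals of other tissues differed between the same samples. The 16 skeletal muscle markers all had lower values in the knockout (median log2 difference -1.78). Their summed signal, on a linear scale, was 362 and 519 in wild type against 251 and 105 in the knockout, with 12 of 16 above background on all 4 arrays. All 11 macrophage markers were lower too (median -0.50), with a summed signal of 261 and 274 in wild type against 147 and 272 in the knockout. The sum was lowest on knockout replicate 1, and on knockout replicate 2 it lay between the wild-type sums. In 5 of the 11 (45.5%) both knockout arrays lay below both wild-type arrays, beside 15.8% of all genes. Among them was Cd68, at 5.17 and 4.77 in wild type against 3.53 and 4.65 in the knockout. Acot9 was lower in the same samples, and the part of muscle or macrophage RNA in its value was not tested.

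Of 10 liver markers 9 were higher in the knockout (median 0.44), and 5 were above background on all 4 arrays. Their summed signal was 33.8 and 25.7 in wild type against 89.9 and 44.3 in the knockout. Alb had the largest difference, 1.81. In 4 of the 10 both knockout arrays lay above both wild-type arrays, beside 19.4% of all genes. The markers' median deviation from their 4-array means was -0.23 and -0.31 in wild type against 0.49 and -0.19 in the knockout. By that measure only knockout replicate 1 stood apart. All 13 brown adipocyte markers were higher, with a median of 0.33 and sums of 3869 and 3721 against 4441 and 4482. Acot11 and Acot3 were higher in the same samples, and the part of either signal in their values was not tested. Endothelial markers were split, 3 higher and 3 lower (median -0.03). Their sums of 571 and 479 in wild type against 486 and 648 in the knockout overlapped.

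**Figure D4:**
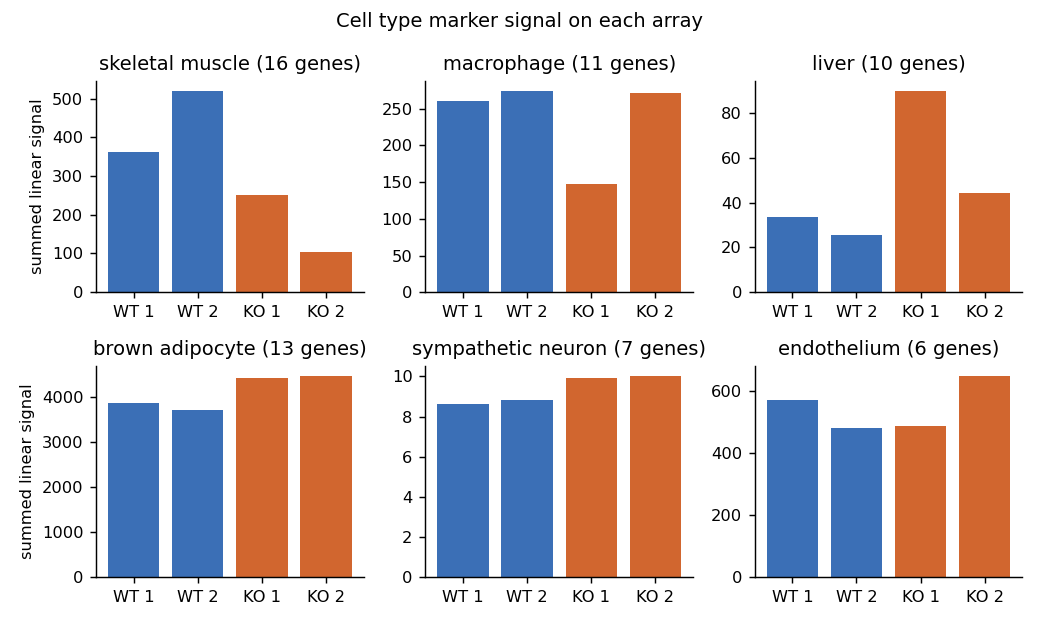
Summed linear signal (2 to the power of each log2 value, added over the genes named for each cell type; vertical axes start at 0) on each array. The skeletal muscle sum is lower on both knockout arrays, and the macrophage sum is lowest on knockout replicate 1, at 147.

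The other genes of the thioesterase families were near or below background. Of 8, 1 was above background on all 4 arrays, 6 were higher and 2 lower in the knockout (median 0.10), and 0 had an unadjusted p under 0.05. Acot6, the peroxisomal enzyme for branched acyl chains and the last gene of the type I cluster, was the one above background, at 0.96 and 1.35 in wild type against 0.91 and 1.47 in the knockout. Acot10, an intronless copy of Acot9, read 0.15 and 1.09 in wild type against 0.18 and 1.22 in the knockout. In both genes the samples with number 2 were the higher ones in each genotype. The difference of Acot10 was 0.08, beside -1.09 for Acot9.

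Acot5, between Acot3 and Acot6, was below background throughout, with a difference of -0.19. Acot12, the acetyl-CoA hydrolase of liver cytosol, was above background on 1 array and differed by -0.10. Them5, a mitochondrial relative and neighbour of Them4, read 0.04 and 0.24 in wild type against 0.998 and 0.12 in the knockout, so its difference of 0.42 came from 1 array. Acnat2 likewise read 0.82 on knockout replicate 1, beside a background of 0.81 there, and between 0.02 and 0.19 on the other arrays. The liver sum was also highest on that knockout array, and the part of liver RNA in the Acnat2 value was not tested. Acnat1 and Baat, which join acyl groups to amino acids, were below background on all 4 arrays. The dark genes say only that these probe sets did not exceed the background used here.

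Thioesterases that act on other acyl thioesters were all higher, by little. All 6 had higher knockout values, between 0.03 and 0.29 with a median of 0.13, and 0 had an unadjusted p under 0.05. Ppt2, a lysosomal thioesterase, differed by 0.29, and its genotypes did not overlap (3.38 and 3.51 against 3.78 and 3.70). Hibch, which frees 3-hydroxyisobutyrate from coenzyme A in valine breakdown, differed by 0.17, and Lypla1, which removes palmitate from proteins, by 0.12. Olah, which ends fatty acid synthesis at medium chains, was below background.

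The enzymes that make acyl-CoA, opposite to the thioesterases, lay on both sides of 0. Of 19 listed, 16 were measured, 10 higher and 6 lower (median 0.05). An unadjusted limma p under 0.05 was found for 1 (6.25%), beside 5.56% of all genes. That was Acss2, which makes acetyl-CoA from acetate. It read 5.25 and 4.90 in wild type against 5.75 and 5.89 in the knockout, a difference of 0.75. Acsl5, a long-chain synthetase, differed by 0.51 and Acsm5, a medium-chain synthetase, by 0.32. Slc27a2, a very long-chain synthetase and transporter, differed by -0.48. Single arrays moved all 3: without each in turn Acsl5 lay between 0.24 and 0.78, Acsm5 between 0.14 and 0.50 and Slc27a2 between -0.72 and -0.25.

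Of the 7 acyl-CoA binding genes 6 were higher and 1 lower (median 0.03). Acbd4, a peroxisomal membrane protein, was the 1 member with an unadjusted p under 0.05 (14.3%, beside 5.56% of all genes). It read 3.06 and 3.10 in wild type against 3.59 and 3.49 in the knockout (difference 0.46). Dbi, the main cytosolic carrier of acyl-CoA, differed by 0.40, Acbd6 by 0.17 and the Golgi protein gene Acbd3 by -0.32. Without single arrays Acbd6 lay between 0.032 and 0.31 and Acbd3 between -0.53 and -0.11. The carnitine route, which takes acyl groups into mitochondria, had 6 of 7 genes measured, all above background on all 4 arrays, 4 of them higher and 2 lower (median 0.14), with 0 at an unadjusted p under 0.05. Carnitine acetyltransferase, Crat, differed by 0.30, Cpt2, the inner membrane transferase, by 0.23, the carrier gene Slc25a20 by 0.18 and the peroxisomal transferase gene Crot by 0.11. Of the 6 measured, both knockout arrays lay above both wild-type arrays in these 4, beside 19.4% of all genes. These 4 were named for the smallest unadjusted p of the list, so nothing is read from that count. Without single arrays Crat lay between 0.19 and 0.41, Cpt2 between 0.16 and 0.31, Slc25a20 between 0.065 and 0.29 and Crot between 0.070 and 0.15.

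Genes for the supply and breakdown of coenzyme A gave 7 higher and 3 lower of 10 measured (median 0.06), with 0 at an unadjusted p under 0.05. Ppcs, which adds cysteine in coenzyme A synthesis, differed by -0.67, Pank3, a pantothenate kinase at the entry of that pathway, by 0.44, the mitochondrial carrier gene Slc25a42 by 0.25 and Ppcdc by 0.11. Without single arrays Ppcs lay between -1.05 and -0.29, Pank3 between 0.070 and 0.81, Slc25a42 between 0.13 and 0.37 and Ppcdc between -0.20 and 0.42. Several thioesterase genes, Acot1 to Acot4 among them, are known targets of the fatty acid receptor PPAR-alpha in liver. Of 15 measured genes on the list of Ppara and its known targets, 12 were higher and 3 lower (median 0.21). An unadjusted limma p under 0.05 was found for 1 (6.67%), beside 5.56% of all genes. That was Acaa1b, a peroxisomal thiolase also abundant in liver. It read 2.41 and 2.16 in wild type against 3.61 and 3.26 in the knockout, a difference of 1.15. The liver sum was higher on the same arrays, but by the median deviation of the liver markers only knockout replicate 1 stood apart. The part of liver RNA in the Acaa1b value was not tested. Fgf21, below background in wild type, differed by 0.38, the pantetheinase gene Vnn1 by 0.35 and Ucp3 by 0.33, while Ppara itself differed by 0.08. Ucp3 lay between 0.19 and 0.48 without single arrays. With limma 0 of the genes in these 7 further lists had an adjusted p under 0.05.

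**Figure D5:**
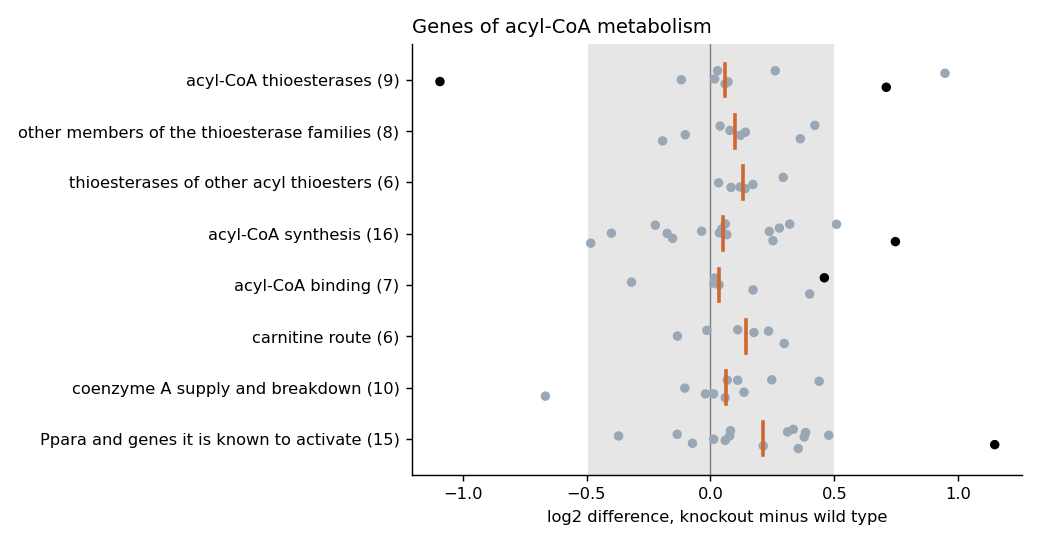
log2 difference (horizontal axis) of every measured gene of the thioesterase list and of 7 further lists of acyl-CoA metabolism (number measured in brackets); black points have an unadjusted limma p under 0.05, orange bars are medians and the grey band is the middle 90% of all genes. The list medians lie between 0.03 and 0.21, and the thioesterases have the lowest single value (Acot9, -1.09).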

How the data were processed

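Biotin-labelled cDNA from the brown fat RNA of each of the 4 samples was read on 1 array, per the labels' protocols. For 41345 probe sets the authors deposited normalized log2 expression values. The submitters' processing notes list oligo, limma and RMA with no role or version. RMA corrects background, quantile-normalizes arrays and summarises probes, which pulls dim probe sets together and understates their changes. Base 2 is taken from RMA, and the levels carry an offset of unstated origin that cancels in differences.

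Of the probe sets, 23521 have 1 gene symbol in the platform annotation, 1814 several and 16010 none listed; only the first were used, giving 22180 genes at 1 probe set each, that of the highest mean. Entrez IDs of the 9 measured members matched RefSeq. The 2 genotypes were compared with limma 3.58.1 under R 4.3.3 (lmFit, eBayes, two-sided, 2 residual and 3.96 prior degrees of freedom) with Benjamini-Hochberg adjustment over all genes, and the script was tested on simulated data. The members and lists were chosen with earlier results of these data known. All members and other thioesterase family genes are named, and of each further list those with an unadjusted p under 0.05 or among its 4 smallest; Ppara was added after its value was seen. Same-numbered samples did not deviate together (r = -0.073 across genes between the within-genotype differences), so the main fit has no block. Array number limits the precision: the median half-width of the 95% interval was 0.52. Promoter windows came from RefSeq (GRCm38.p6) and were aligned with Biopython 1.88. Alternatives varied the block, probe set, filter, normalization, variance model, weights and samples.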

Additional observations from a re-analysis of the deposited data

How the results depend on the processing

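The differences of Acot9, Acot3, Acot11 and Acot13 kept their sign under all 16 alternatives, and 0 of the 41 genes tracked crossed the adjusted threshold in any of them (limma adjusted p for Acot9 from 0.334 to 0.927, for Acot11 from 0.204 to 0.999). Over all genes, 1 passed with the replicate block, 1 with a trend in the prior variance, and 0 to 15 without single arrays. Wild-type replicate 1 decides the highest of these counts (15 without it, 2 without wild-type replicate 2). Genes with an unadjusted p under 0.05 numbered 713 with the filter at the median and 771 with the background filter, which test fewer genes. Of the members, 1 had an unadjusted p under 0.05 with no variance moderation and 1 to 3 without single arrays, Acot3 being lost without wild-type replicate 2 or knockout replicate 2. With the replicate block, repeated quantile normalization, cyclic loess, a trend in the prior variance or the most variable probe set 3 did, the third being Acot11, or Acot4 with the most variable probe set. Members without overlap numbered 5 to 9 without single arrays, where 1 array against 2 overlaps less often. Their median was 0.029 with the mean or the most variable probe set and 0.084 to 0.14 without single arrays. Acot4 turned to -0.14 with the mean of its probe sets and -0.55 with the most variable one. Without single arrays signs turned in Acot1 (-0.37 to 0.14), Acot2 (-0.12 to 0.18), Acot7 (-0.025 to 0.14), Them4 (-0.25 to 0.28), Acot6 (-0.24 to 0.32), Acot10 (-0.44 to 0.60), Acot12 (-0.25 to 0.044), Them5 (-0.016 to 0.86), Baat (-0.0011 to 0.24), Lypla1 (-0.022 to 0.26) and Ppcdc (-0.20 to 0.42). The direction of those 11 genes and Acot4 was not settled by these data. In the main fit no gene passed the adjusted threshold, so a kept sign does not settle a direction either. Leaving out 1 array can turn a sign only where the genotypes overlap, which they did not in Acot9, Acot3, Acot11 and Acot13. Each of those genes has 1 probe set, and the block, filter, variance model and weights left their estimates unchanged. Of the alternatives, only the normalization could thus have turned their sign. The intervals of Acot11 and Acot13, which kept their sign, held 0.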
